A study of Homo sapiens with 6 samples.

Results

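Translation factors are the proteins that bring an mRNA and the initiator tRNA to the ribosome (initiation) and that carry tRNAs in and move the ribosome along (elongation). The genes described here are the rows of the deposited table whose symbol starts with EIF and a digit from 1 to 6, or with EEF1 or EEF2. The pattern matched 70 symbols. The 5 EIF2AK symbols (4 kinases of eIF2 and the noncoding EIF2AK3-DT) and the antisense gene EIF1B-AS1 were left out, which left 64 of the 15024 genes in the table. By textbook role 40 encode initiation factors, 5 encode elongation factors, 2 encode eIF5A, 16 encode regulators, modifying enzymes, partners or near-identical copies, and 1, EIF3J-DT, is noncoding. EEF1G, a further subunit of the elongation factor 1 exchange complex, was not analysed here.

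All 6 libraries came from MDA-MB-231, a human cell line from triple-negative breast cancer, made Mll3-null and treated with forskolin (10 µM, 14 days), which activates adenylyl cyclase and so protein kinase A. After that time cells positive for CD44 were sorted by CD104 (integrin beta-4) into a CD104high population (3 biological replicates, E/M 1 to 3) and a CD104-/low population (3 biological replicates, M 1 to 3), called CD104low here. The study's design calls the first population hybrid EMT, a state between epithelial and mesenchymal, and the other mesenchymal. Every group thus carries the same gene loss and the same drug, and wild-type or untreated cells were not analysed here. The sources used here do not say whether the Mll3-null cells are 1 clone, and nothing ties a replicate to a separate culture or day. The p-values therefore cover only the spread among these libraries, which may be technical.

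Each value is a scaled read count, the reads of a gene divided by 1 size factor per library. Between 49791498 and 60069719 reads per library fell on the genes of the table. ITGB4, which encodes CD104, was 9.87-fold higher in CD104high (log2 fold change 3.30, limma adjusted p = 0.000126), which follows from the sort, and CD44 did not pass the test (0.05, limma adjusted p = 0.708). Of 4 epithelial markers measured, KRT18 and KRT19 were higher in CD104high. KRT8 (0.20) and EPCAM (-0.32) did not pass, and CDH1 was not analysed here. Of 4 mesenchymal markers, FN1 was higher in CD104high (1.52), while VIM, CDH2 and ZEB1 did not pass. The summed level of 2 leukocyte markers (CD14 and LAPTM5) was 679 to 936 in CD104high and 320 to 404 in CD104low. That of 3 fibroblast markers was 107 to 368 against 46.5 to 66.3. Most of it was LUM, at 98.9, 97.1 and 359 in CD104high against 56.3, 40.4 and 51.7 in CD104low. DCN (mean 4.61 in CD104high against 5.09 in CD104low) and PDGFRA (5.02 against 3.14) stood too low to be tested. The endothelial marker PECAM1 stood at 4.06 to 8.83 against 4.04 to 14.6. PTPRC, CD3E, CDH5 and VWF were not analysed here. The part of these markers in the results below was not tested.

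In initiation, eIF2 brings the initiator tRNA to the small ribosomal subunit, eIF1, eIF1A and eIF5 set where it starts, eIF3 holds the complex together, and the eIF4 group binds the mRNA cap and unwinds the leader. Then eIF5B joins the large subunit. In elongation, eEF1A delivers tRNAs, the eEF1B subunits recharge eEF1A with GTP, and eEF2 moves the ribosome by 1 codon. Many of these mRNAs begin with a terminal oligopyrimidine tract, a run of C and T at the first transcribed base through which mTORC1 controls their translation. EEF1A1 is made in nearly all cells, whereas EEF1A2 is its muscle and neuron paralog and is known to be overexpressed in some breast and ovarian tumours.

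Translation factor mRNAs were mostly lower in CD104high than in CD104low. In limma on log2(value + 1), with Benjamini-Hochberg adjusted p under 0.05 over all 14420 genes tested, 35 of the 63 tested factors were lower and 5 were higher. Over all genes 21.6% were lower and 21.8% higher (43.4% in either direction). The 5 higher ones were EEF1A2, EEF2K, EIF4EBP2, EIF4G3 and EIF4B. The median log2 fold change of the factors was -0.30, beside 0.02 over all genes, and 51 of the 63 lay below 0. In 43 factors all 3 CD104high libraries lay below all 3 CD104low libraries, and in 8 all lay above (26.9% and 27.4% of all genes). The authors' deposited table, whose adjusted p was under 0.05 and lower for 22.6% and higher for 23.1% of its genes, called 39 factors lower and 6 higher. Over the 18 other ways of fitting, 29 to 43 factors were called lower and 4 to 7 higher. Without replicate 1 of CD104low the calls over all genes fell from 6257 to 4101, and those of the factors to 29 lower and 4 higher. EIF4EBP3, the remaining factor, stood at 5.07 to 8.83 in CD104high and 5.03 to 14.2 in CD104low and did not pass the filter on low values (at least 10 in at least 3 libraries). A bulk level is a share of the library's RNA, so fewer cells of a type and less RNA per cell cannot be told apart.

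**Figure D1:**
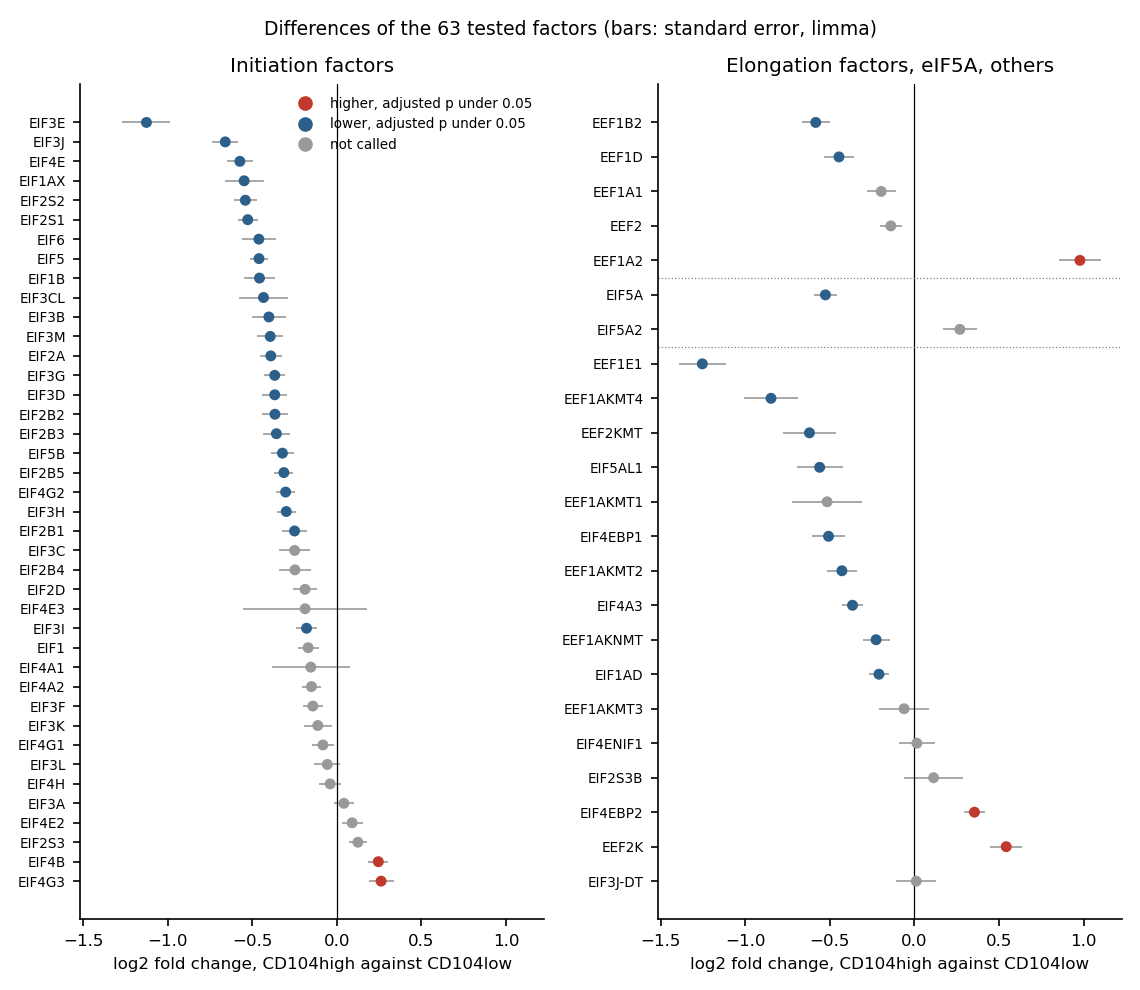
Log2 fold change of CD104high against CD104low on the log2(value + 1) scale (x axis) for each of the 63 tested factors (y axis), with initiation factors on the left and elongation factors, eIF5A and the others on the right, set apart by dotted lines. Points are limma estimates from 3 against 3 libraries and bars are standard errors. Most points lie left of 0, from -1.25 (EEF1E1) upward, and EEF1A2 stands farthest right at 0.98.

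The starts of these genes are shown first because a tract shared at the first base is a known feature of this gene class. RefSeq promoters (GRCh38.p14, 250 bases before to 50 bases after a start) were found by symbol for 50 of the 64 factors, with 68 starts, and EEF1A2 and EIF3E had no entry. A start was counted as a pyrimidine tract if base 1 was C and at least 5 bases in a row from it were C or T, read on the gene's strand. This held for at least 1 start in 13 of the 50 factors (26.0%) and in 809 of 11515 genes of the table (7.03%). The sequences below run from 10 bases before the start to base 20, and the capitals mark the tract. They are those of the elongation factors with a tract, of the other tract genes that were called, and of EIF2S3 with its copy EIF2S3B.
EEF1A1, chr6:73521013-73521042, minus strand: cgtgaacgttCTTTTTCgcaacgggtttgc
EEF2, chr19:3985444-3985473, minus strand: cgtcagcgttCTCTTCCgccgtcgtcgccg
EEF1B2, chr2:206159885-206159914, plus strand: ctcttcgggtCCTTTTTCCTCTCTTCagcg
EIF4B, chr12:53006446-53006475, plus strand: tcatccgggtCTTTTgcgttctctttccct
EIF2A, chr3:150546777-150546806, plus strand: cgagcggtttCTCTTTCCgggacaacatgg
EIF3D, chr22:36529147-36529176, minus strand: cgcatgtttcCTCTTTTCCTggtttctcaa
EIF3M, chr11:32583821-32583850, plus strand: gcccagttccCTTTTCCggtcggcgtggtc
EIF2S3, chrX:24054946-24054975, plus strand: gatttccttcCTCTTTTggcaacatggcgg
EIF2S3B, chr12:10505880-10505909, plus strand: gactttcttcCTCTTTTggcaacatggcgg
The tract of EEF1B2 is the longest of these, at 16 bases, and belongs to 1 of the listed starts of that gene. The other tract genes were EIF2D, EIF3F, EIF3K and EIF4A2.

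Of the 13 tract genes 4 were lower (EEF1B2, EIF3M, EIF2A and EIF3D) and 1, EIF4B, was higher in CD104high, beside 21.6% and 21.8% of all genes, with a median log2 fold change of -0.15. Of the 36 tested factors with a promoter but no tract, 22 were lower and 3 higher, with a median of -0.31. The difference between these groups was not tested. Of 8 factors known from the literature to carry a tract, 4 were lower (EIF3E, EEF1B2, EEF1D and EIF3H) and EIF4B was higher. The remaining members of that list were EEF1A1, EEF2 and EIF3F, whose log2 fold changes of -0.20, -0.14 and -0.14 did not pass. For EEF1D and EIF3H the search above found no tract, and EIF3E had no promoter entry. The group without a tract may therefore hold genes with a known tract.

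A second promoter word was CACGTG, the E-box that MYC and related factors can bind. It reads the same on both strands. It stood in 13 of the 50 factors (26.0%) and in 12.1% of the table's genes with a promoter. EIF4E, which encodes the cap-binding protein, held it at positions -225 and -72 from the start. EIF5A2, EIF4G1 and EEF1AKMT4 held 2 copies as well, with log2 fold changes of 0.27, -0.08 and -0.85. The 250 bases before the EIF4E start are given with both copies in capitals.
EIF4E, chr4:98929134-98929383, minus strand: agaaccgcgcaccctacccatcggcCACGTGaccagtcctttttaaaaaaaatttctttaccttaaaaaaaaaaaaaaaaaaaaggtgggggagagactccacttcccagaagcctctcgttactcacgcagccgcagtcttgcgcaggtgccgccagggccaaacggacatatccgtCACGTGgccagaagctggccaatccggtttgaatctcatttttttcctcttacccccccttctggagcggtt
Of the 12 tested factors with CACGTG, 5 were lower and 2 (EEF2K and EIF4B) higher, beside 21.6% and 21.8% of all genes. Their median log2 fold change was -0.13. Of the 37 without CACGTG 21 were lower and 2 higher, with a median of -0.25. TGACGTCA, the full cAMP response element and also a palindrome, stood only in EEF2 among the 50 factors, at position -13, and in 3.57% of the table's genes with a promoter. A match is only a match of letters and shows no binding.

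Among elongation factors, EEF1A2 was higher in CD104high, while its paralog EEF1A1 did not pass the test in limma. EEF1A1 (ENSG00000156508.18, chr6:73515750-73523797) stood at 536061, 538312 and 597428 in CD104high against 641751, 617434 and 654767 in CD104low. All CD104high libraries lay below all CD104low libraries, but the log2 fold change of -0.20 (SE 0.09) did not pass the test in limma (adjusted p = 0.0961). It passed in edgeR's quasi-likelihood test (adjusted p = 0.0237), in DESeq2 (0.0131), and without replicate 3 of CD104high (-0.25, limma adjusted p = 0.0441). The authors' deposited table gives EEF1A1 an adjusted p of 0.0155. After quantile normalization its difference is 0 by construction, since it has the highest value in every library.

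EEF1A2 (ENSG00000101210.12, chr20:63488012-63499322) stood at 1990, 1499 and 1708 in CD104high against 990, 827 and 813 in CD104low. The lowest CD104high library was thus above the highest CD104low library. The gene was 1.97-fold higher in CD104high (log2 fold change 0.98, SE 0.12 and limma adjusted p = 0.000676) and was called in all 18 other fits. The authors' deposited table gives EEF1A2 the same log2 fold change with a wider SE of 0.35. Its adjusted p there is 0.0170, beside 0.0155 for EEF1A1. It remained the minor form. Per kilobase of its longest annotated coding sequence, EEF1A2 had 1164 ± 165 scaled reads in CD104high against 589 ± 65.9 in CD104low (SD, n = 3 per population), beside 402068 ± 25107 and 460306 ± 13672 for EEF1A1. As a share of the EEF1A1 count, EEF1A2 came to 0.371%, 0.279% and 0.286% in CD104high, against 0.154%, 0.134% and 0.124% in CD104low. The log2 ratio differed by 1.17, or 2.26-fold, between populations that did not overlap (exact permutation test, two-sided, p = 0.1, the smallest that 3 against 3 allows).

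EEF1B2 and EEF1D encode exchange subunits of the eEF1B complex, and both were lower in CD104high. EEF1B2 stood at 14037, 13592 and 15025 against 22991, 18926 and 22176, a log2 fold change of -0.58 (SE 0.08 and limma adjusted p = 0.00104). EEF1D stood at 4470, 4196 and 4429 against 6659, 5282 and 5976, a log2 fold change of -0.45 (SE 0.09 and limma adjusted p = 0.00406). Neither gene overlapped between populations, and both calls held in all 18 other fits. EEF2, the translocase, stood at 118281, 114317 and 123850 against 132577, 128810 and 131167. The populations of EEF2 did not overlap, but its log2 fold change of -0.14 (SE 0.06) did not pass (limma adjusted p = 0.112). It passed in DESeq2 (adjusted p = 0.0423), and the authors' deposited table gives 0.0229.

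**Figure D2:**
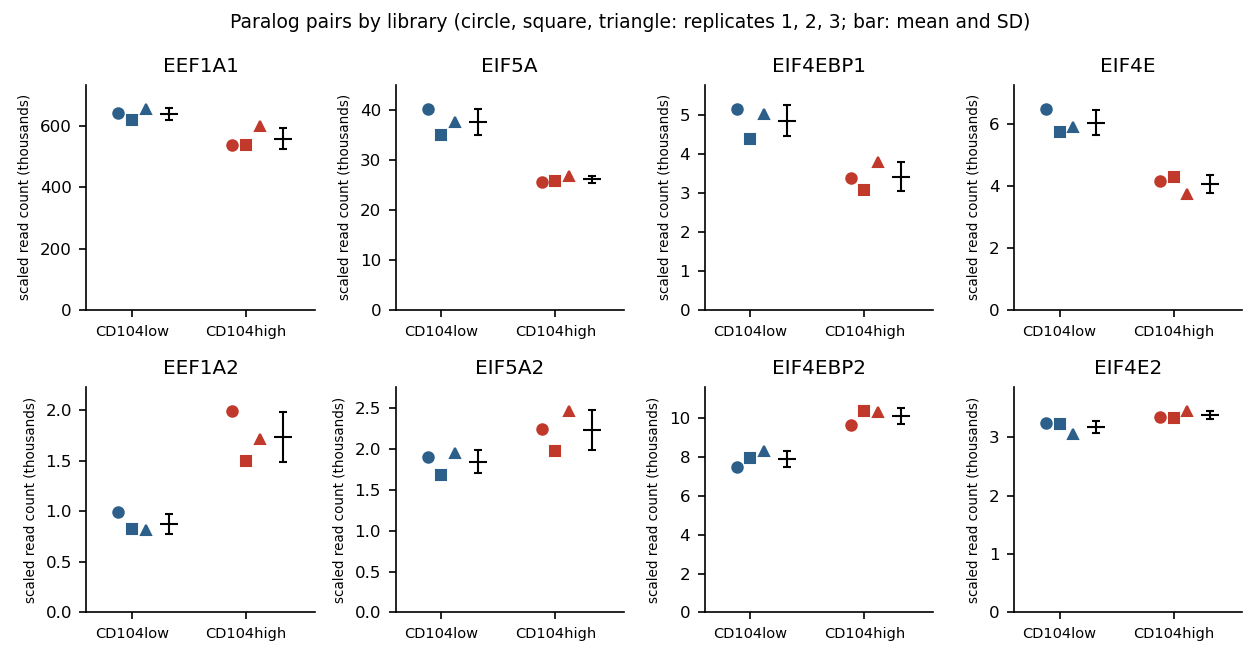
Scaled read counts (y axis, linear and from 0) of 4 pairs of related factors, the more abundant or main form above for EEF1A, EIF5A and EIF4E. Each point is 1 library, the symbol shape gives the replicate, and bars show mean and SD over 3 libraries. The EEF1A1, EIF5A, EIF4EBP1 and EIF4E points are lower in CD104high (right), and those of EEF1A2, EIF5A2, EIF4EBP2 and EIF4E2 are higher, each without overlap.

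EIF5A, the hypusine-bearing factor that helps ribosomes through stretches such as runs of proline, was lower in CD104high. It stood at 25587, 25872 and 26786 against 40217, 35020 and 37629 (log2 fold change -0.53, SE 0.07 and limma adjusted p = 0.000674). Its paralog EIF5A2, known as an oncogene amplified in ovarian cancer, stood at 2245, 1979 and 2470 against 1903, 1687 and 1955. The EIF5A2 populations did not overlap, and the log2 fold change of 0.27 (SE 0.10) did not pass (limma adjusted p = 0.0565). It passed without replicate 2 of CD104high (0.35, limma adjusted p = 0.0266), in DESeq2 (0.0405) and, with 0.0212, for the authors' deposited table. As a share of EIF5A, EIF5A2 was 8.55% ± 0.811 in CD104high against 4.92% ± 0.247 in CD104low (SD, n = 3 per population). EIF5AL1, an EIF5A copy on chromosome 10, was lower as well (-0.56, limma adjusted p = 0.0106), and reads of so similar a copy can be divided between the genes.

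In the eIF2 trimer, the alpha and beta subunits were lower and the gamma subunit was not. EIF2S1, the alpha subunit whose phosphorylation stops initiation, stood at 7886, 7740 and 7956 in CD104high and 11751, 10737 and 11514 in CD104low. Its log2 fold change was -0.53 (SE 0.06 and limma adjusted p = 0.000444). EIF2S2, the beta subunit, stood at 12448, 12890 and 12933 against 19505, 17097 and 19172 (-0.54, SE 0.07 and limma adjusted p = 0.000591). The CD104high libraries of both genes were close to each other and far below those of CD104low. EIF2S3, the gamma subunit that binds GTP and the tRNA, stood at 11912, 12320 and 12471 against 11015, 11149 and 11511. The direction was opposite to that of the other subunits, with a log2 fold change of 0.12 (SE 0.05) that did not pass (limma adjusted p = 0.0959). With a correction for transcript length and GC content it passed, at 0.27 (limma adjusted p = 0.00356), and after quantile normalization it passed at 0.16 (0.0409). EIF2S3B, the copy whose start was printed beside it, stood at 174 to 232 against 161 to 210 and overlapped.

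The 5 subunits of eIF2B, the exchange factor that reloads eIF2 with GTP, all lay below 0. All 5 were without overlap between populations, beside 26.9% of all genes in that direction. EIF2B2 (-0.37, limma adjusted p = 0.0055), EIF2B3 (-0.36, 0.00821), EIF2B5 (-0.31, 0.00275) and EIF2B1 (-0.25, 0.024) were lower. EIF2B5, the catalytic subunit, stood at 5177, 4920 and 4978 against 6322, 6199 and 6209. The EIF2B1 call was lost without replicate 1 or 2 of CD104high or replicate 1 or 3 of CD104low, at adjusted p of 0.0604, 0.0695, 0.0659 and 0.0884. EIF2B4 (-0.25, limma adjusted p = 0.0661) did not pass, but it did without replicate 3 of CD104high (-0.33, 0.0176). EIF2A and EIF2D, which can carry initiator tRNA without eIF2, had log2 fold changes of -0.39 (limma adjusted p = 0.00185) and -0.19 (0.0533). EIF2D passed without replicate 3 of CD104high (-0.22, 0.0431) and without replicate 2 of CD104low (-0.22, 0.0469).

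Of the genes for eIF3, the largest initiation factor, 9 of 14 were lower, beside 21.6% of all genes. EIF3E had the largest difference of the initiation factors. EIF3E stood at 20116, 21569 and 22966 in CD104high against 55455, 36413 and 51295 in CD104low. The CD104low libraries were widely spread, with replicate 2 lowest, but even that library was above all of CD104high. The gene was 2.18-fold lower (log2 fold change -1.13, SE 0.14 and limma adjusted p = 0.000658). EIF3J, the loosely bound subunit at the mRNA entry channel, stood at 3335, 3701 and 3213 against 5771, 5214 and 5201 (-0.66, SE 0.08 and limma adjusted p = 0.0005).

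EIF3B, part of the core with EIF3A, was lower (-0.40, limma adjusted p = 0.0124), as was its partner EIF3G (-0.37, 0.00228). The subunits EIF3M (-0.39, limma adjusted p = 0.00396), EIF3D (-0.37, 0.00492) and EIF3H (-0.30, 0.00307) were lower too. EIF3D is known to bind the cap of selected mRNAs. EIF3A, the scaffold, stood at 33080, 31494 and 30343 against 30047, 30727 and 31409 and overlapped (0.04, limma adjusted p = 0.601). EIF3F (-0.14), EIF3K (-0.11) and EIF3L (-0.06) did not pass either, with limma adjusted p of 0.0797, 0.309 and 0.585, and EIF3F passed without replicate 3 of CD104high (-0.18, 0.0399). The subunits of this single complex thus ranged from -1.13 to 0.04. EIF3I (-0.18, limma adjusted p = 0.0484) lost its call without replicate 1 or 2 of CD104high (0.123 and 0.153) and without replicate 1 or 3 of CD104low (0.16 and 0.132). EIF3C and EIF3CL are near-identical genes among which reads can be divided. EIF3CL was lower (-0.43, limma adjusted p = 0.0365), a call lost without replicate 1 or 2 of CD104high (0.113 and 0.111) and without replicate 1 or 3 of CD104low (0.106 and 0.122). EIF3C, at -0.25 (limma adjusted p = 0.0513), missed the threshold here and in 7 of the 18 other fits, and was lower in the rest. Among those were the fits without replicate 3 of CD104high (limma adjusted p = 0.0468) or replicate 2 of CD104low (0.0485).

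**Figure D3:**
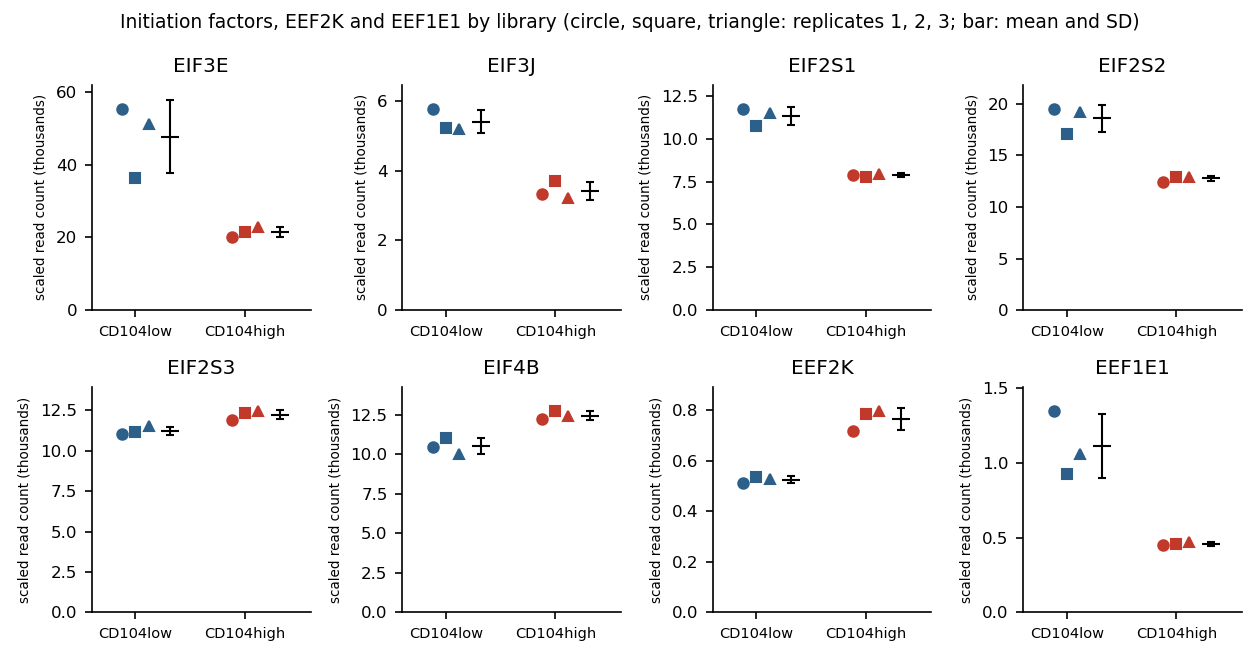
Scaled read counts (y axis, linear and from 0) of 6 initiation factors, the elongation factor kinase EEF2K and the EEF1E1 gene. Each point is 1 library, the shape gives the replicate, and bars show mean and SD over 3 libraries. CD104high points (right) lie below CD104low for EIF3E, EIF3J, EIF2S1, EIF2S2 and EEF1E1, and above for EIF2S3, EIF4B and EEF2K.

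In the eIF4 group 2 of 10 genes were lower and 2 higher, close to the 21.6% and 21.8% over all genes. EIF4E stood at 4151, 4283 and 3743 in CD104high against 6489, 5726 and 5905 in CD104low, a log2 fold change of -0.57 (SE 0.08 and limma adjusted p = 0.000809). Its relative EIF4E2, which binds caps but can repress translation, stood at 3347, 3339 and 3452 against 3241, 3228 and 3057. The EIF4E2 populations lay apart by little, and the difference of 0.09 did not pass (limma adjusted p = 0.265). EIF4E3 was scarce, at 22.1 to 54.7 against 41.5 to 52.8, and overlapped.

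Of the scaffolds, EIF4G1 stood at 70822, 69049 and 64821 against 70204, 72423 and 73982 and overlapped (-0.08, limma adjusted p = 0.324). EIF4G2, which lacks the EIF4E binding site and serves alternative initiation, stood at 49695, 51208 and 49951 against 62698, 60703 and 62717. It was lower (-0.30, SE 0.06 and limma adjusted p = 0.0033), and by -0.17 after quantile normalization (0.0461). EIF4G3 stood at 7771, 8226 and 7097 against 6115, 6780 and 6354, higher by 0.26 (SE 0.07 and limma adjusted p = 0.02). That call was lost without replicate 1 or 2 of CD104high (0.0686 and 0.0721) and without replicate 1 or 3 of CD104low (0.081 and 0.059).

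EIF4B, which stimulates the helicase, stood at 12215, 12756 and 12426 against 10489, 11060 and 10030, higher by 0.24 (SE 0.06 and limma adjusted p = 0.0108). It was called higher in all 18 other fits too, by 0.21 to 0.28. EIF4H, which acts like EIF4B, overlapped (-0.04, limma adjusted p = 0.657). EIF4A2, a helicase, stood at 13978, 14166 and 14336 against 16059, 15994 and 15109, without overlap. The EIF4A2 difference of -0.15 did not pass in limma (adjusted p = 0.054) and did in edgeR (0.0389) and DESeq2 (0.0308). EIF4A1, its paralog, was listed at only 192 to 310 in CD104high and 209 to 348 in CD104low. A readthrough gene, SENP3-EIF4A1 (chr17:7563287-7578715), covers most of EIF4A1 on the same strand in GENCODE 29 and was not analysed here, so the low value need not be the level of all EIF4A1 transcripts.

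Factors of start selection and subunit joining were mostly lower, 4 of 5, beside 21.6% of all genes. EIF1AX stood at 8164, 7915 and 9241 against 12675, 10346 and 14242 (-0.55, SE 0.12 and limma adjusted p = 0.00548). EIF5, which triggers GTP hydrolysis by eIF2, stood at 13227, 13521 and 13136 against 18867, 17648 and 18379 (-0.46, SE 0.05 and limma adjusted p = 0.000544). EIF1B (-0.46, limma adjusted p = 0.00438) and EIF5B (-0.32, 0.00676) were lower too. EIF1, at 19452, 18584 and 19574 against 22750, 20411 and 21700, did not pass (-0.17, limma adjusted p = 0.0529), but did without replicate 2 of CD104low (-0.21, 0.025), in edgeR (0.0328) and in DESeq2 (0.0289). EIF6, which keeps the large subunit from joining too early, stood at 9057, 7848 and 9830 against 13161, 10887 and 12724 (-0.46, SE 0.10 and limma adjusted p = 0.00657).

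Regulators of the factors moved in both directions. EEF2K, the kinase that phosphorylates and so inactivates eEF2, stood at 717, 785 and 798 in CD104high and 512, 538 and 527 in CD104low. It was 1.46-fold higher (log2 fold change 0.54, SE 0.10 and limma adjusted p = 0.00253). The 4E-BP proteins, which bind EIF4E and block cap-dependent initiation until mTORC1 phosphorylates them, were split. EIF4EBP1 stood at 3384, 3070 and 3807 against 5161, 4396 and 5018 (-0.51, SE 0.10 and limma adjusted p = 0.00343). EIF4EBP2 stood at 9637, 10379 and 10326 against 7490, 7931 and 8319 (0.35, SE 0.06 and limma adjusted p = 0.00289). EIF4EBP2 was 298% ± 35.3 of EIF4EBP1 in CD104high against 164% ± 17.7 in CD104low (SD, n = 3 per population). EIF4ENIF1, which carries EIF4E into the nucleus, overlapped (0.01, limma adjusted p = 0.924).

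EEF1E1 had the largest difference of all 63 factors, except with the length and GC correction, where EEF1AKMT4 (-0.85), EEF1A2 (0.77) and EIF3E (-0.75) were ahead of its -0.74. Despite its name it encodes a scaffold of the tRNA synthetase complex, and it stood at 449, 458 and 474 in CD104high and 1350, 929 and 1059 in CD104low. The CD104high libraries were nearly equal and well below the rest. The gene was 2.39-fold lower (log2 fold change -1.25, SE 0.14 and limma adjusted p = 0.000422). The readthrough gene EEF1E1-BLOC1S5 overlaps it and was not analysed here.

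The lysine methyltransferases of eEF1A and eEF2 were mostly lower, 4 of 6, beside 21.6% of all genes. EEF1AKMT4 stood at 142, 161 and 169 against 263, 256 and 337 (-0.85, SE 0.16 and limma adjusted p = 0.00361). The readthrough gene EEF1AKMT4-ECE2 overlaps EEF1AKMT4 on the same strand and was not analysed here. EEF2KMT (-0.62, limma adjusted p = 0.0126), EEF1AKMT2 (-0.43, 0.00567) and EEF1AKNMT (-0.23, 0.0465) were lower. EEF2KMT lost its call without replicate 1 of CD104low (0.0579). EEF1AKNMT lost it without replicate 1, 2 or 3 of CD104high (0.074, 0.142 and 0.0668) and without replicate 1 or 3 of CD104low (0.147 and 0.154). EEF1AKMT1 (-0.52, limma adjusted p = 0.0738) passed without replicate 2 of CD104low (-0.65, 0.0414), and EEF1AKMT3 overlapped (-0.06, limma adjusted p = 0.766). EIF4A3, the helicase of the exon junction complex, was lower at -0.37 (limma adjusted p = 0.00191). EIF1AD, named for its eIF1A-like domain, was lower at -0.21 (0.023). The EIF1AD call was lost without replicate 1 or 3 of CD104high (0.0745 and 0.0516) and without replicate 1 or 3 of CD104low (0.0803 and 0.0512). EIF3J-DT, the noncoding gene divergent from EIF3J, overlapped at 530 to 624 against 531 to 640 (0.01, limma adjusted p = 0.952).

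Set side by side, initiation factors had 23 of 40 lower and 2 higher, with a median log2 fold change of -0.30. Elongation factors had 2 of 5 lower and 1 higher, with a median of -0.20. Over all genes 21.6% were lower and 21.8% higher, so among 5 genes these counts say little. In DESeq2 4 of the 5 elongation factors were lower. With EIF5A and EIF5A2 added to either class, the counts were 24 lower and 2 higher of 42 for initiation, and 3 lower and 1 higher of 7 for elongation. Initiation factors took 0.857%, 0.850% and 0.841% of the table's reads in the CD104high libraries against 1.02%, 0.978% and 1.01% in CD104low. Elongation factors took 1.27%, 1.27% and 1.36% against 1.46%, 1.45% and 1.46%. Both sums were lower in every CD104high library. EEF1A1 alone made up 45.9% ± 1.17 and 44.8% ± 0.444 (SD, n = 3 per population) of the reads of all 64 factors, so the elongation share follows that gene. The classes share libraries and differ in size, and the difference between them was not tested.

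Ratios of related factors within a library do not depend on the scaling between libraries. Of 10 pairs, 7 did not overlap between populations. Among all single genes 27.4% lay apart with CD104high above and 26.9% with CD104high below. The share for ratios of other genes was not computed, so the count of 7 says little. Each of the 7 had an exact permutation p = 0.1 (two-sided, the smallest possible) and p = 0.143 after Benjamini-Hochberg adjustment over the 10, so none can pass. In 5 of the 7 the ratio was higher in CD104high. After EEF1A2 to EEF1A1 (1.17) the largest differences of the log2 ratio were EIF4EBP2 to EIF4EBP1 (0.86), EIF5A2 to EIF5A (0.79) and EIF4E2 to EIF4E (0.66), followed by EIF4G3 to EIF4G1 (0.34). EIF1B to EIF1 (-0.29) and EIF4G2 to EIF4G1 (-0.22) were lower. With the correction for length and GC content these last values were -0.07 and 0.04. The remaining pairs overlapped, at 0.39 for EIF4E3 to EIF4E (p = 0.4 in the exact test), -0.21 for EIF4A3 to EIF4A1 (p = 0.6) and 0.00 for EIF4A2 to EIF4A1 (p = 1). Leaving out 1 library moved the EIF4E3 ratio between 0.10 and 0.84, and the EIF4A3 ratio between -0.41 (without replicate 2 of CD104low) and -0.0031 (without replicate 3 of CD104low).

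**Figure D4:**
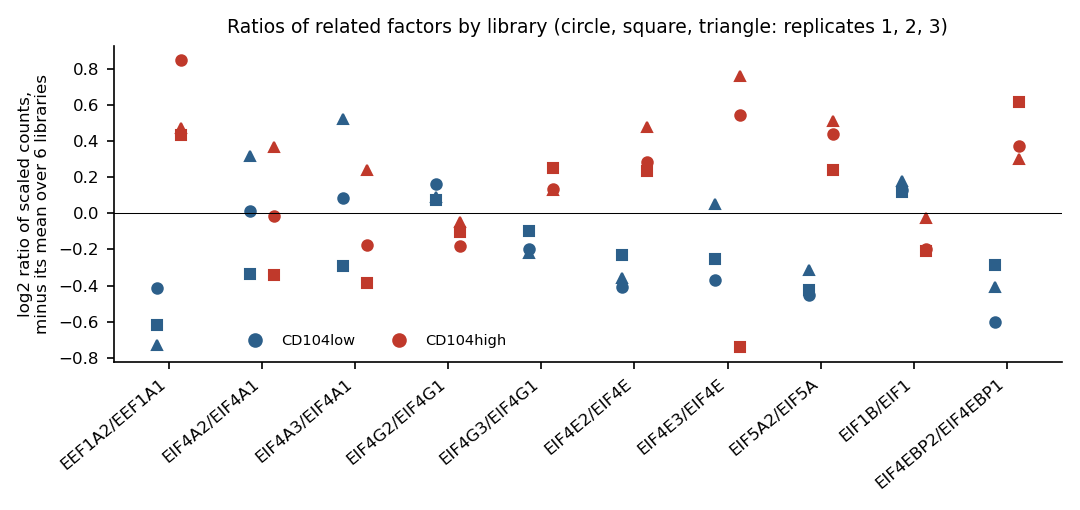
Log2 ratio of the scaled counts of 10 pairs of related factors (x axis), each minus its mean over the 6 libraries (y axis). Each point is 1 library, blue for CD104low and red for CD104high, and the shape gives the replicate. The populations are apart for 7 pairs and overlap for EIF4A2/EIF4A1, EIF4A3/EIF4A1 and EIF4E3/EIF4E.

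Transcript length and base composition went with the differences. Across the 63 factors the log2 fold change correlated with the log10 length of the longest transcript at Pearson's r = 0.40, and across 14398 genes at 0.19. With GC content r was 0.17 and 0.19. These are descriptions across genes, which share the same 6 libraries. Fitting length and GC content within each library moved the median of the factors from -0.30 to -0.25 and gave 35 lower and 6 higher factors. EEF1E1 went to -0.74, EIF3E to -0.75, EIF3J and EIF3M to -0.37 and -0.25, EEF1B2 to -0.38, EIF1AX to -0.27, EIF3H to -0.16 and EEF2K to 0.30, all still past the test. EIF2A (-0.09, limma adjusted p = 0.19), EIF1B (-0.12, 0.21), EIF2B1 (-0.13, 0.146), EEF1AKMT2 (-0.16, 0.179), EIF3I (-0.06, 0.358) and EIF4G3 (0.14, 0.0989) no longer passed. EIF4G1 (-0.35, 0.00204), EEF2 (-0.28, 0.0105) and EIF5A2 (0.52, 0.00247) then did, with EIF2S3, EIF2B4, EIF2D and EIF3C.

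**Figure D5:**
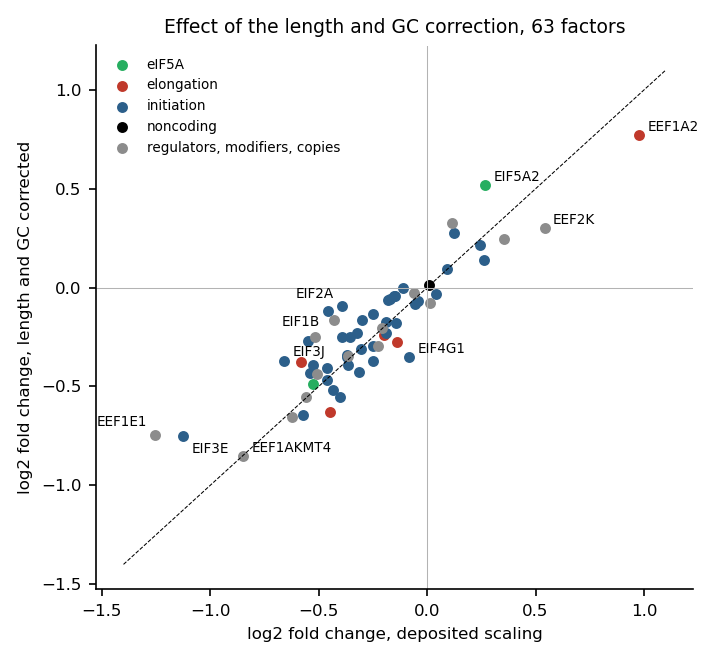
Log2 fold change of CD104high against CD104low for 63 factors as fitted (x axis) and after correcting for transcript length and GC content (y axis), both on the log2(value + 1) scale, coloured by class. The dashed line marks equal values. EEF1E1, EIF3E and EIF3J lie above it and closer to 0, EIF4G1 lies below it, and EEF1A2 stays the highest.

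Some calls of factors near the threshold changed with other fits. Limma without the trend no longer called EEF1AKNMT, EIF2B1, EIF3CL, EIF3I and EIF4G3, with adjusted p of 0.0922, 0.0566, 0.061, 0.0996 and 0.0549. After quantile normalization EEF1AKNMT, EIF1AD and EIF3I were not called (limma adjusted p of 0.0621, 0.0573 and 0.0607). EIF3I also missed the threshold without the filter on low values (0.0501 in limma). With TMM scaling, a common way to set library sizes, EIF1, EIF2B4, EIF2D, EIF3C, EIF3F and EIF4A2 passed as well, which made 41 factors lower. EIF4EBP2, EEF2K, EIF4B and EEF1A2 were higher under every one of the 18 other fits.

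Genes that act around the factors were counted from fixed lists. In the eIF2 kinases and phosphatase list 1 of 7 was higher and 3 lower, beside 21.8% and 21.6% of all genes. Over the 18 other fits 0 to 2 were higher and 1 to 4 lower, with 0 higher and 1 lower without replicate 1 of either population. EIF2AK2, the kinase that senses double-stranded RNA, was higher (0.20, limma adjusted p = 0.0254). EIF2AK2 lost its call without replicate 1 of CD104high (0.109), without replicate 1 or 3 of CD104low (0.0637 and 0.0712) and with the length and GC correction (0.0676). PPP1R15A, which brings the phosphatase to eIF2 under stress, was lower (-0.40, 0.00464), as was ATF4, the factor made when eIF2 is phosphorylated (-0.28, 0.0181). ATF4 lost its call without replicate 1 or 2 of CD104high (0.0753 and 0.0537) and without replicate 1 or 3 of CD104low (0.0743 and 0.0667). In the list of mTORC1 and cap binding control, 3 of 15 were higher and 3 lower, close to the shares over all genes, with a median of 0.00. With the length and GC correction 1 was higher and 6 lower, with a median of -0.18, and with the replicate block added 3 were higher and 8 lower. PDCD4, an inhibitor of the eIF4A helicase, was higher (0.62, SE 0.10 and limma adjusted p = 0.00184), as was TSC2, an inhibitor of mTORC1 (0.39, 0.00817). RPS6 (-0.33, 0.00719) and the S6 kinase gene RPS6KB2 (-0.35, 0.00724) were lower. With the length and GC correction TSC2 was at 0.07 (0.406) and RPS6 at -0.03 (0.699), and neither passed.

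In a list of poly(A) binding proteins and helicases that also held ABCE1, DENR and MCTS1, 7 of 10 genes were lower, beside 21.6% of all genes. ABCE1, which splits ribosomes for the next round, was lower by the most (-0.74, SE 0.08 and limma adjusted p = 0.000464), followed in p by DENR (-0.25, 0.00796), which acts in reinitiation. The DENR value turned to 0.02 with the length and GC correction. Of 5 termination and rescue genes 4 were lower, beside the same 21.6% of all genes. They were led in p by the release factors ETF1 (-0.47, SE 0.05 and limma adjusted p = 0.00048) and GSPT1 (-0.39, 0.000848). Over the 18 other fits 4 of these 5 were lower each time, and 3 to 9 of the 10 in the poly(A) list.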

How the data were processed

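Libraries were sequenced from 3 CD104high and 3 CD104low samples. Tools named in the submitters' processing notes are FastQC, Salmon 1.3.0 and DESeq2, with GRCh38 (hg38) as build. The sources used here do not give annotation release, strand setting or model formula. The authors' table, per the file headers, gives a deposited signal (scaled reads) in every library, with the log2 fold change, its standard error, the p-value and its adjusted form. Values were whole multiples of 1 step per library (100% within 0.01), so reads were recovered. If Salmon made them they are rounded estimates.

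Populations were compared with limma 3.58.1, trend option on (R 4.3.3), using log2(value + 1), for genes with at least 10 in at least 3 libraries, population being the only term. Such fold changes understate low genes. On recovered reads, edgeR 4.0.16 called 6264 genes and DESeq2 1.42.0 called 6610. Levels are mean ± SD. Replicates of a population differed beyond sampling noise (chi-square per degree of freedom 13.2 to 46.4). Other alternatives were scaling, filters, pseudocounts, no trend, replicate block, leaving out each library, and splines with 4 degrees of freedom on transcript length and GC content (longest transcript, GENCODE 29, matched by gene identifier for 14994 genes and all 64 factors). The fitting code was tested on simulated data with 200 changed genes and no link between same-numbered replicates. That checks the code, not how well the fit suits these data.

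The factors, roles, lists and tests were chosen with earlier results of these data known. Named are every elongation factor, up to 4 called members of each role group in each direction, members whose call changes with the fit or that spell out a count, and up to 2 genes of each related list in each direction. Other annotated genes overlap 17 factors on the same strand and 41 on the opposite strand, so reads may be shared.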

Additional observations from a re-analysis of the deposited data

How the results depend on the processing

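Of 1134 refits of single factors, 1003 kept direction and side of the threshold, 62 came to pass it, 46 no longer passed it and 23 turned sign, none of those 23 passing in either fit. The cause was not tested in any of them. All genes called numbered 4101 to 6395 when 1 library was left out, the lowest without replicate 1 of CD104low. Initiation factors called higher numbered 1 in limma without the trend and 1 to 2 with a library left out. Elongation factors called lower numbered 4 in DESeq2 and 4 in the replicate block with the length and GC correction. Their median log2 fold change was -0.13 after quantile normalization and -0.28 with the length and GC correction, with or without the replicate block. The EIF4G2 to EIF4G1 ratio turned to 0.044 with that correction, and the EIF4A2 to EIF4A1 ratio ranged from -0.18 to 0.18 with a library left out, being -0.16 without replicate 2 of CD104low.

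Log2 fold changes that turned sign with another fit of all libraries were those of EIF4ENIF1 (-0.0030 with TMM scaling, -0.029 with quantile normalization, -0.0068 in edgeR, -0.079 with the length and GC correction, with or without the block), EIF3J-DT (-0.0069 with TMM scaling, -0.062 with quantile normalization, -0.0061 in edgeR), EIF4H (0.029) and EIF2S3B (-0.094) with quantile normalization, and EIF3A (-0.034) and DENR (0.017) with the length and GC correction, with or without the block. With 1 library left out, EIF4E3 ranged from -0.41 to 0.23, EIF4A1 from -0.34 to 0.025, EIF3L from -0.12 to 0.011, EIF3J-DT from -0.060 to 0.087, EEF1AKMT3 from -0.17 to 0.078, EIF4ENIF1 from -0.083 to 0.067 and EIF2S3B from -0.012 to 0.22.

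Same-numbered replicates had correlations of their deviations of 0.084, 0.359 and 0.324, so not every pair was over 0.1 and the numbers were not taken as pairs. Every library correlated best with its own number, a hint from the data and not the design. With the replicate block 7876 genes were called, against 6257, and 41 factors were lower and 6 higher. The precision rests on 3 libraries a population, and counting error adds most for scarce genes such as EIF4E3.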

Other observations

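Enzymes that modify the elongation machinery, and the factors of mitochondrial translation, were further groups counted from fixed lists. Of 8 genes for hypusine and diphthamide synthesis, which modify EIF5A and EEF2, 5 were lower in CD104high, beside 21.6% of all genes. The median log2 fold change of the 8 was -0.42. DOHH, the hydroxylase that completes hypusine, stood at 2294 ± 97.4 in CD104high against 3409 ± 156 in CD104low (SD, n = 3 per population), a log2 fold change of -0.57 (SE 0.07 and limma adjusted p = 0.000561). DPH5, a methyltransferase of diphthamide synthesis, stood at 1696 ± 175 and 2622 ± 166 (-0.63, SE 0.09 and limma adjusted p = 0.00117). DHPS, the enzyme before DOHH, was at -0.31 and did not pass (limma adjusted p = 0.229). Over the 18 other fits 4 to 7 of the 8 were lower.

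Of 8 factors of mitochondrial translation 4 were lower, beside 21.6% of all genes. The median of the 8 was -0.29, beside 0.02 over all 14420 genes tested. TUFM, the mitochondrial counterpart of eEF1A, stood at 8788 ± 390 in CD104high against 12593 ± 627 in CD104low (SD, n = 3 per population), a log2 fold change of -0.52 (SE 0.06 and limma adjusted p = 0.000597). GFM1, the mitochondrial counterpart of eEF2, was at -0.34 (SE 0.06 and limma adjusted p = 0.00305). The initiation factors MTIF2 (-0.11) and MTIF3 (-0.31) did not pass, with limma adjusted p of 0.465 and 0.0605. Over the 18 other fits the median of this list ranged from -0.36 to -0.06 and 3 to 5 of its genes were lower.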
